A study of Mus musculus with 19 samples.

Results

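Nrp1, Nrp2, Sema3a, Sema3c, Sema3f, Plxna1, Plxna2, Plxna3 and Plxna4 are the 9 genes described here, of 35596 genes in the deposited tables. They were taken by name as neuropilins, class 3 semaphorins and class A plexins with a part in guiding vomeronasal fibers. The mRNA came from whole vomeronasal organs (VNOs) of female mice at postnatal day 21, with 3 biological replicates in each of 6 groups. The AP-2εCre line (labelled AP2eCre +/-) expresses Cre in basal vomeronasal sensory neurons (VSNs) while these are still immature, and the OMPCre line does so once VSNs are mature, both apical and basal. Each line had Smad4 conditional knockouts (cKO, Cre +/- with Smad4 flox/flox), Cre +/- heterozygotes (Het) and controls that the labels call wild type (WT) and the methods give as Smad4 flox/flox. The labels give the heterozygotes Cre +/- alone, without floxed Smad4. The cell type in the labels is the Cre target only. The dissected tissue held all cells of the organ, so fewer cells of a type and less RNA per cell cannot be told apart.

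Class 3 semaphorins are secreted guidance proteins. They bind a neuropilin on the axon, and a class A plexin paired with that neuropilin passes the signal to the cytoskeleton. Neuropilin 2 is the receptor subunit that binds Sema3f and is known from apical VSNs, whose axons run to the anterior accessory olfactory bulb. Neuropilin 1 is the subunit that binds Sema3a, and it also serves as a co-receptor of vascular endothelial growth factor on vessels.

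Nrp2 is made in forms with different membrane-proximal and cytoplasmic parts, and these forms are described below because the counts divided almost evenly between them. The sequences are coding strand sequences of mouse GENCODE vM21 transcripts on GRCm38, on the plus strand of chromosome 1. Capitals mark the alternative segment, and lower case marks the coding bases joined to it. The 5-codon segment of 15 bases lies at chr1:62786302-62786316 and is shown in Nrp2-206. The 17-codon segment of 51 bases lies at chr1:62812534-62812584 and is shown in Nrp2-202. The Nrp2a end has 302 coding bases at chr1:62815333-62815634, and the Nrp2b end has 278 at chr1:62795709-62795986, of each of which the first 60 are shown, in Nrp2-204 and Nrp2-205.
5-codon segment: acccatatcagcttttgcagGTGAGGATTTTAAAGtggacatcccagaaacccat
17-codon segment: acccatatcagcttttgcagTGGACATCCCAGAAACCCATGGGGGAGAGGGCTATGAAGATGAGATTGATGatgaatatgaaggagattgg
Nrp2a end: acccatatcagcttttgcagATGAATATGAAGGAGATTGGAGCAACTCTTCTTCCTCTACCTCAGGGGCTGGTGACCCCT
Nrp2b end: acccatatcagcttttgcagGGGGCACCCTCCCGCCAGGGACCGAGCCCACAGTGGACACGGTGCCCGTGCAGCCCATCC
In the transcripts shown, all 4 segments follow the same 20 coding bases. They are not exclusive of each other, since Nrp2-206 has the 5-codon segment followed by the 17-codon segment, and Nrp2-201 has the 5-codon segment and the Nrp2b end.

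Totals of estimated counts ranged from 43385516 to 134042284 per library, and all 9 genes passed the filter on low counts in every comparison. Smad4 counts, which cover the whole transcript and not the floxed exon alone, gave 33.8 to 66.5 CPM (counts scaled to a library of 1000000) in the AP-2εCre cKO and 39.6 to 81.0 in its 6 controls. Smad4 in the OMPCre line gave 54.4 to 62.5 CPM in the cKO and 64.8 to 83.9 in the controls. The Smad4 ranges overlapped in the AP-2εCre line and did not in the OMPCre line, where the Benjamini-Hochberg adjusted p of edgeR was 0.909. Tfap2e, which encodes AP-2ε, gave 5.44 to 8.88 CPM in AP-2εCre Het, 10.0 to 12.5 in cKO and 14.0 to 16.6 in WT libraries. Of the 18 libraries, 6 carry names in a number form and 12 in a letter form. Each line has 1 cKO, 1 Het and 1 WT library of the number form.

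Levels between genes were compared per transcript length, as TPM, in the 12 control libraries of both lines. Summing TPM over the transcripts that held at least 5% of a gene's counts gave Nrp2 the highest level, 39.2 ± 9.67 TPM (SD, n = 12). Plxna1 followed with 26.3 ± 7.07 TPM, below Nrp2 in 12 of 12 libraries although the ranges across libraries overlapped. Both stood above a middle group of 5 genes. Within that group Nrp1 gave 10.9 ± 2.93 TPM, Sema3f 10.5 ± 2.14 TPM and Sema3a 6.62 ± 1.85 TPM. Plxna3 gave 6.32 ± 1.83 TPM and Sema3c 6.16 ± 1.29 TPM. Nrp1 exceeded Sema3f in 5 of 12 libraries and Plxna3 exceeded Sema3c in 6 of 12, so neither pair was separated beyond its spread. Plxna2 was lower, at 2.80 ± 0.64 TPM, and its range lay wholly below that of Sema3c. Plxna4 was the lowest of the 9 genes, at 1.24 ± 0.29 TPM, and lay below Plxna2 in 12 of 12 libraries.

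**Figure D1:**
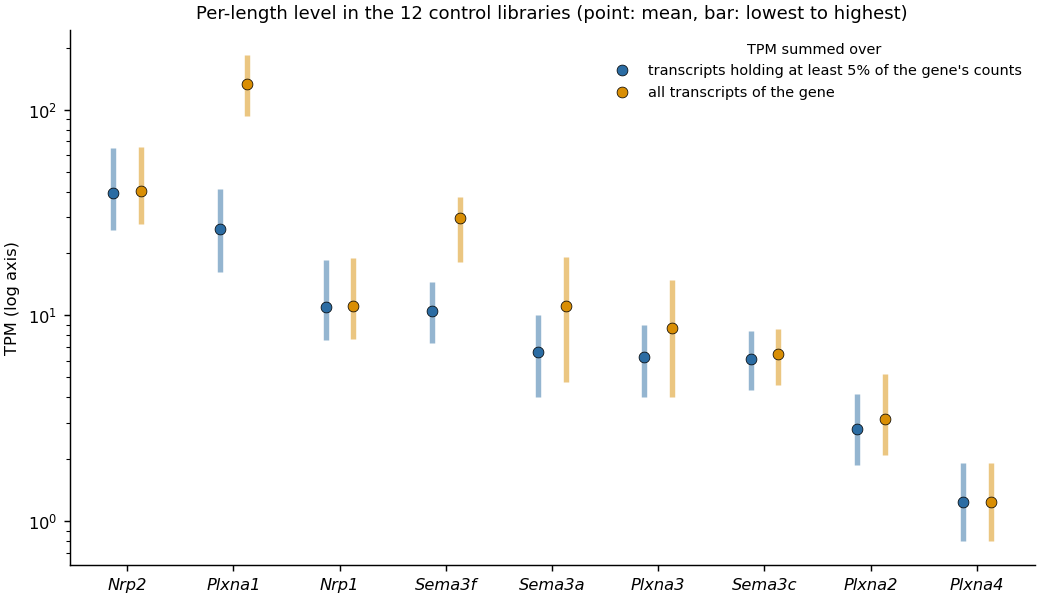
Level of the 9 genes in TPM (log axis) in the 12 control libraries, with the mean as a point and the lowest to highest library as a bar. Blue sums the transcripts that hold at least 5% of the gene's counts and orange sums all transcripts. Plxna1, Sema3f and Sema3a stand higher in orange, and Nrp1, Nrp2 and Plxna4 are nearly unchanged.

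The order depended on short transcripts. With all transcripts summed, Plxna1 came first at 133 ± 28.7 TPM (n = 12), and Sema3f rose above Nrp1 at 29.9 ± 6.31 TPM. Plxna1-206, a retained-intron fragment of 372 bases, held 3.87% of the Plxna1 counts and 59.6% of its summed TPM in controls. Sema3f-202, of 376 bases, held 2.41% of counts and 27.9% of TPM, and Sema3a-205, of 312 bases, 0.53% of counts and 32.9% of TPM. Nrp1-201 held 98.7% of Nrp1 counts, Plxna2-201 96.4% of Plxna2 counts, Sema3c-201 93.7% of Sema3c counts and Plxna1-202 91.5% of Plxna1 counts. Nrp1, Plxna1, Plxna2 and Plxna4 were therefore read almost wholly from 1 transcript each. Sema3c-201 ranged from 73.0% to all of the Sema3c counts, and the retained-intron transcript Sema3c-202 reached 22.3% in 1 library. Plxna3 was more divided, with 75.3% in Plxna3-201 and 16.2% in the retained-intron transcript Plxna3-209. Sema3a divided into Sema3a-201 with 54.6% and Sema3a-202 with 40.4%, which have coding regions of the same length, 772 codons.

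Nrp2 counts fell almost evenly on the Nrp2a and the Nrp2b end. The Nrp2b end held 41.5% to 49.9% of Nrp2 counts over the 18 libraries, with a mean of 45.4% ± 2.36 (SD, n = 18), nearly all of it Nrp2-205 with 45.2%. The Nrp2a end held 54.5% ± 2.40, led by Nrp2-202 with 35.7%, which includes the 17-codon segment. Nrp2-204, with neither short segment, held 10.9%, and Nrp2-206, with both, held 5.87%. The 17-codon segment was present in 41.4% ± 3.17 of Nrp2 counts and the 5-codon segment in 7.88% ± 2.82. Shares of transcripts are estimates from 75-base single reads, and the smallest segment rests on the few reads that cross its 15 bases.

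**Figure D2:**
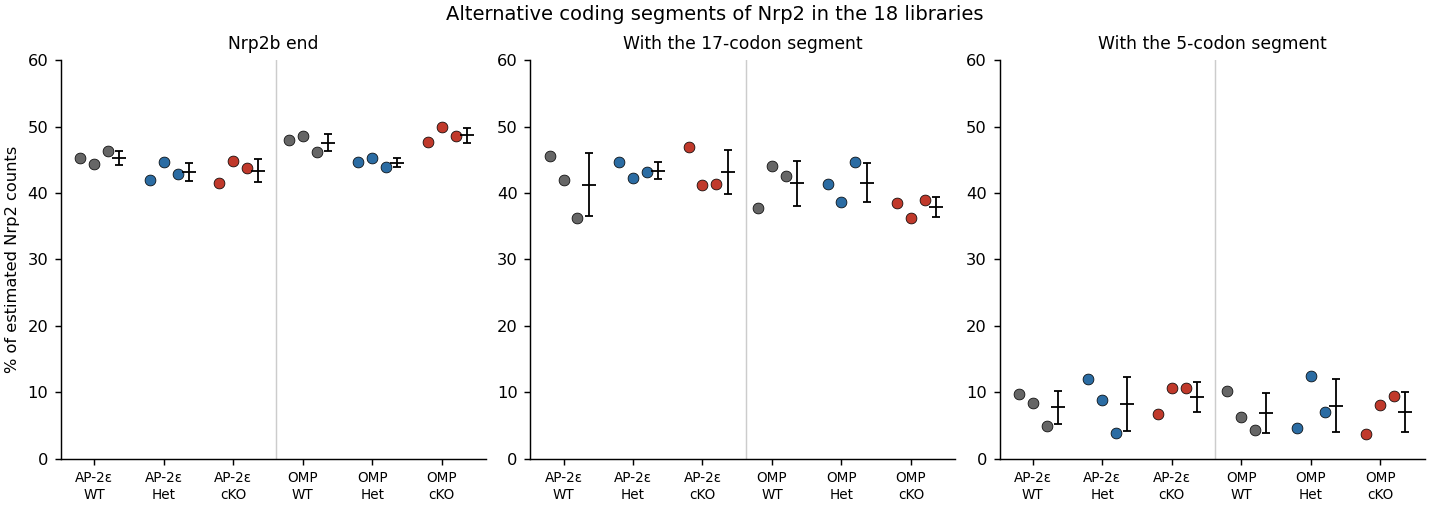
Share of estimated Nrp2 counts (percent) in transcripts with the Nrp2b end, the 17-codon segment and the 5-codon segment, by group. Points are libraries in the order of replicates 1, 2 and 3, and black marks are the mean ± SD. OMPCre Het libraries lie below OMPCre WT libraries for the Nrp2b end, and the 5-codon segment holds the smallest share in every group.

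The Nrp2b share overlapped between the cKO and the 6 controls in both lines. In the AP-2εCre line it was 41.5%, 44.8% and 43.8% in the cKO libraries and 41.9% to 46.3% in the 6 controls, which overlapped. The difference was -0.84 percentage points (two-sided exact permutation p = 0.48). In the OMPCre line it was 47.6%, 49.9% and 48.6% in the cKO and 43.9% to 48.6% in the controls, a difference of 2.63 points (exact permutation p = 0.095). OMPCre heterozygotes, at 44.6%, 45.2% and 43.9%, lay below the OMPCre WT libraries, at 48.0%, 48.6% and 46.1%. They also lay below all OMPCre cKO libraries, a difference that was not tested. The Het against WT comparison of 3 against 3 cannot give an exact p under 0.1. In it 2 of 15 shares of members, the Nrp2b end and its main transcript, did not overlap, against 9.7% of the shares of all genes, and in the AP-2εCre line it was 1 of 15, Sema3f-204, against 8.44%.

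Nrp2, the receptor subunit for Sema3f, was the member with the most regular difference in the cKO. The AP-2εCre line gave 394, 336 and 353 CPM in the cKO libraries, 295, 309 and 301 in the Het libraries and 306, 316 and 249 in the WT libraries. All 3 cKO libraries lay above all 6 controls. The log2 fold change was 0.29 (SE 0.09, 95% interval 0.08 to 0.50), or 1.22-fold, and it did not pass the test across all genes (edgeR adjusted p = 0.345). The exact permutation test of this single value gave p = 0.012, the smallest that 3 against 6 libraries allow. Nrp2 was the only member of 9 whose groups did not overlap, where 5.06% of the 18495 tested genes did not. Nrp2 in the OMPCre line gave 314, 349 and 414 CPM in the cKO, 281, 316 and 380 in the Het and 279, 299 and 284 in the WT libraries. These groups overlapped through the heterozygote at 380 CPM. Libraries of the same replicate number were taken as pairs in this line, where replicate 3 has the number-form name in every genotype. Within each number the cKO library lay above both controls. The share of all genes with that order was not counted. The log2 fold change was 0.23 (SE 0.12, 95% interval -0.03 to 0.49), with an edgeR adjusted p of 1.0 and an exact permutation p of 0.12. With the replicate number as a block it was 0.22 (edgeR adjusted p = 0.903), and against Het libraries alone it was 0.14. Without cKO replicate 3, the library at 414 CPM, the OMPCre value was 0.12.

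Nrp2 was also compared within each form of library name. Among letter-form libraries, AP-2εCre cKO gave 336 and 353 CPM against 295 to 316 in 4 controls, a log2 difference of 0.17. Among number-form libraries the cKO library gave 394 CPM against 249 and 301 in 2 controls, a log2 difference of 0.53. The OMPCre differences were 0.18 within the letter form and 0.34 within the number form. Both lines had higher Nrp2 in the cKO within both forms, with 1 cKO library in each number-form value. With the name form as a covariate, the edgeR log2 fold change stayed at 0.29 in the AP-2εCre line and 0.22 in the OMPCre line.

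Markers of apical VSNs also had the higher sum in the cKO. The summed level of the 4 listed markers, Gnai2, Meis2, Vmn1r51 and Vmn1r85, was 696 to 736 CPM in AP-2εCre cKO and 563 to 653 in its controls. In the OMPCre line it was 637 to 689 CPM in the cKO and 565 to 632 in the controls. Neither pair of ranges overlapped, and all 4 markers had the higher mean in the cKO of both lines. Gnai2 held the largest part of the sum, with a mean of 444 CPM in AP-2εCre cKO. Taken singly, only Gnai2 did not overlap in the AP-2εCre line and only Meis2 in the OMPCre line. None of the 4 was called by edgeR in either line. The order of the libraries within a group differed between the sum and Nrp2 in some groups. In OMPCre cKO replicates 1, 2 and 3 it was 688, 689 and 637 CPM while Nrp2 was 314, 349 and 414, and in OMPCre Het it was 632, 592 and 580 CPM while Nrp2 was 281, 316 and 380. In AP-2εCre cKO it was 706, 696 and 736 CPM while Nrp2 was 394, 336 and 353. In OMPCre WT it was 597, 565 and 587 CPM while Nrp2 was 279, 299 and 284, the reverse order. In AP-2εCre Het, at 576, 626 and 616.5 CPM, the order was that of Nrp2 at 295, 309 and 301, and in AP-2εCre WT, at 653, 634 and 563 CPM, replicate 3 was the lowest in both. The summed basal VSN markers, 427 to 541 CPM against 320 to 645 in the AP-2εCre line and 534 to 628 against 491 to 633 in the OMPCre line, overlapped. The immune marker sum of the AP-2εCre line was 197 to 202 CPM in the cKO against 155 to 183, and the ciliated cell marker sum was 241 to 343 against 357 to 474. In the OMPCre line every marker sum other than the apical one overlapped, as did the remaining sums of the AP-2εCre line. The part of these cell markers in the Nrp2 values was not tested.

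Nrp1, the subunit that binds Sema3a, gave 59.8, 42.1 and 35.3 CPM in AP-2εCre cKO and 40.9 to 43.8 CPM in the 6 controls. Of the cKO libraries 1 lay above all controls and 1 below, and the log2 fold change was 0.11 (95% interval -0.19 to 0.41, edgeR adjusted p = 0.855). The spread in the cKO was 12.6 CPM (SD, n = 3) against 1.26 CPM (n = 6) in the controls. Without cKO replicate 1 the log2 fold change of Nrp1 was -0.13. Nrp1 in the OMPCre line gave 42.3, 45.6 and 53.0 CPM in the cKO and 41.3 to 58.6 CPM in the controls, with a log2 fold change of -0.01 (95% interval -0.27 to 0.26). The sum of the 6 endothelial markers was 202, 709 and 1484 CPM in AP-2εCre cKO replicates 1, 2 and 3. Most of its spread was that of Pecam1, at 77.2 to 1367 CPM in these libraries. Cdh5, Tek, Emcn, Cldn5 and Flt1 each stayed between 10.4 and 46.7 CPM there. The part of these markers in the Nrp1 values was not tested.

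**Figure D3:**
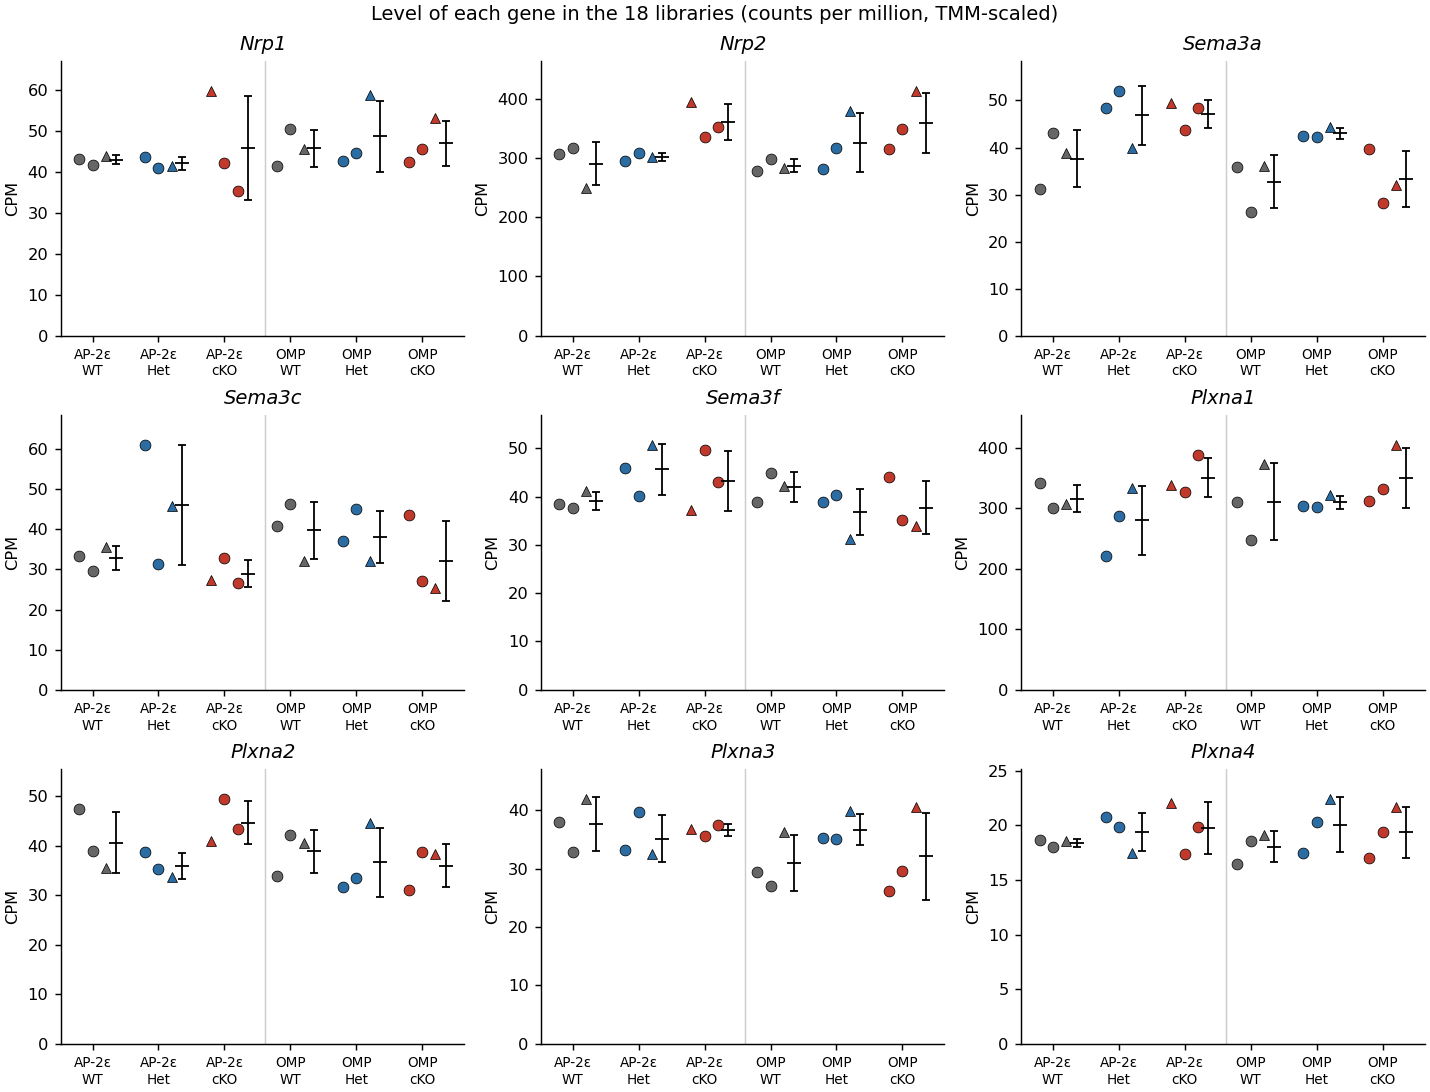
CPM of the 9 genes in each of the 18 libraries, by line and genotype. Circles are letter-form and triangles number-form library names, in the order of replicates 1, 2 and 3, and black marks are the mean ± SD (n = 3). For Nrp2 the AP-2εCre cKO libraries, at 336 to 394 CPM, lie above all 6 controls of the line, and for the other genes the cKO and control ranges overlap.

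Sema3c, a ligand with activity toward both neuropilins, had the lower mean in the cKO of both lines. The AP-2εCre line gave 27.5, 32.8 and 26.6 CPM in the cKO, 61.1, 31.3 and 45.8 in the Het and 33.4, 29.6 and 35.5 in the WT libraries. The groups overlapped, and the heterozygotes spread widest. The log2 fold change was -0.44 (SE 0.22, 95% interval -0.94 to 0.05, edgeR adjusted p = 0.539). Without Het replicate 1, the library at 61.1 CPM, it was -0.28. Against WT libraries alone it was -0.18, and against Het libraries alone -0.66. Sema3c in the OMPCre line gave 43.5, 27.1 and 25.5 CPM in the cKO and 32.1 to 46.2 CPM in the controls, with a log2 fold change of -0.28 (95% interval -0.70 to 0.15). Without cKO replicate 1, the library at 43.5 CPM, that value was -0.57, and it was -0.17 without cKO replicate 2, -0.14 without cKO replicate 3 and -0.16 with counts scaled from TPM.

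Sema3a, the repellent ligand of neuropilin 1, pointed in opposite directions in the lines without passing a test. The AP-2εCre line gave 49.4, 43.7 and 48.4 CPM in the cKO and 31.1 to 52.1 in the controls. The log2 fold change was 0.16 (95% interval -0.15 to 0.48). The OMPCre line gave 39.7, 28.2 and 32.1 CPM in the cKO and 26.2 to 44.4 in the controls, and its log2 fold change was -0.18 (95% interval -0.56 to 0.20). The interaction across 18 libraries gave a difference of 0.34 (95% interval -0.06 to 0.74, edgeR adjusted p = 0.998). Several of these values depended on the setting. With counts scaled from TPM, Sema3a gave -0.94 in the OMPCre line and a difference between lines of 1.16. Against WT libraries alone it gave 0.32 in the AP-2εCre and 0.02 in the OMPCre line, and against Het libraries alone 0.02 and -0.36. The OMPCre value was -0.34 without cKO replicate 1 and -0.07 without cKO replicate 2, and the AP-2εCre value was 0.09 without WT replicate 1. Within Sema3a, the share of Sema3a-202 was 42.0% to 46.4% in AP-2εCre cKO and 34.3% to 40.5% in the controls, and did not overlap. That difference was 6.52 points (exact permutation p = 0.012). The share of Sema3a-201 was lower in the cKO, also without overlap. Both transcripts hold nearly all Sema3a counts, so these are complements and make 1 observation. They were the 2 of 15 shares of members that did not overlap in this line, where 1.98% of the 33035 shares of all tested genes with at least 2 such transcripts did not. In the OMPCre line it was 0 of 15, against 1.3% of all.

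Sema3f, the ligand of neuropilin 2, had overlapping groups in both lines. It gave 37.1, 49.6 and 42.9 CPM in AP-2εCre cKO and 37.7 to 50.8 in the controls, with a log2 fold change of 0.03 (95% interval -0.23 to 0.30). The OMPCre line gave 44.0, 35.1 and 33.9 CPM in the cKO and 31.3 to 45.0 in the controls, with -0.06 (95% interval -0.34 to 0.22). With counts scaled from TPM these values were -0.29 in the AP-2εCre and -0.20 in the OMPCre line, again without a call. None of the 3 ligands thus passed in either line, and the cKO and control libraries of each overlapped.

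Plxna1 was the most abundant plexin of the 9 genes. It gave 338, 326 and 387 CPM in AP-2εCre cKO and 220 to 341 in the controls, with a log2 fold change of 0.24 (SE 0.13, 95% interval -0.05 to 0.53, edgeR adjusted p = 0.582). All 3 cKO libraries exceeded the control mean of 298 CPM and 1 exceeded every control. Against WT libraries alone the value was 0.15. Plxna1 in the OMPCre line gave 311, 331 and 405 CPM in the cKO and 247 to 374 in the controls, with 0.17 (95% interval -0.12 to 0.45). Within each replicate number the cKO library lay above both controls, though by little in replicate 1, where it gave 311.0 against 310.8 CPM in WT. For this order, too, the share of all genes was not counted. Without OMPCre cKO replicate 3, the library at 405 CPM, that value was 0.05.

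Plxna2 gave 41.0, 49.5 and 43.3 CPM in AP-2εCre cKO and 33.7 to 47.4 in the controls, with a log2 fold change of 0.23 (95% interval -0.02 to 0.48, edgeR adjusted p = 0.538). It was 0.14 without cKO replicate 2 and 0.13 against WT libraries alone. The OMPCre line gave 31.0, 38.6 and 38.3 CPM in the cKO and 31.7 to 44.5 in the controls, with -0.07 (95% interval -0.35 to 0.22). The difference between the lines was 0.29 (95% interval -0.08 to 0.67) and did not pass. Plxna3 and Plxna4 gave values near 0 in both lines. Plxna3 had a log2 fold change of 0.01 (95% interval -0.20 to 0.23) in the AP-2εCre line and -0.08 (95% interval -0.42 to 0.27) in the OMPCre line. Plxna4 had 0.07 (95% interval -0.14 to 0.28) and 0.02 (95% interval -0.23 to 0.27). Its CPM ran from 17.4 to 22.1 in AP-2εCre cKO and from 17.4 to 20.8 in the controls.

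**Figure D4:**
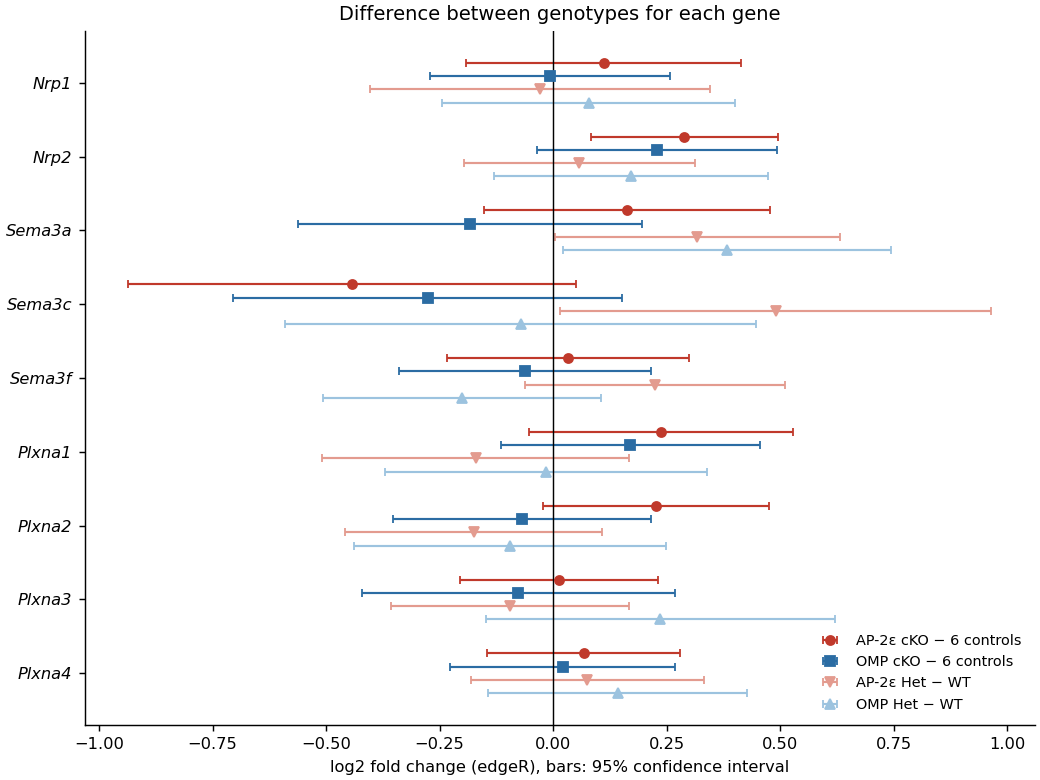
Log2 fold changes of the 9 genes by edgeR, with 95% confidence intervals, for the cKO against the 6 controls of each line and for Het against WT. Nrp2 in the AP-2εCre cKO, Sema3a in both Het comparisons and Sema3c in the AP-2εCre Het comparison have intervals that leave out 0, and none of the 36 values passed adjustment across all genes.

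In counts, 0 of 9 members were called at an adjusted p under 0.05 in the AP-2εCre cKO comparison, where 7 of 18495 genes were (0.0378%). At an unadjusted p under 0.05, 1 of 9 passed, against 10.2% of all tested genes. The median log2 fold change of the 9 was 0.11, and that of all tested genes was 0.003. In the OMPCre cKO comparison 0 of 9 and 0 of 18623 genes were called (0%), and at an unadjusted p under 0.05 the counts were 0 of 9 and 735 genes (3.95%). None of the 9 was free of overlap there, against 2.35% of genes. DESeq2 called 314 genes in the AP-2εCre line and 44 in the OMPCre line, and 0 of 9 members in each. A p that misses the threshold does not show that a gene did not change. Among the members in the AP-2εCre line, the interval with the highest upper bound reached a 1.44-fold rise, for Plxna1, and that with the lowest bound a fall to 0.52 of the control level, for Sema3c.

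Heterozygotes were compared with WT libraries of the same line, which by the labels and methods differ from them in the Cre allele and in floxed Smad4. Sema3a had the higher mean in both. Sema3a in the OMPCre line gave 42.4, 42.3 and 44.4 CPM in Het and 35.9, 26.2 and 36.2 in WT libraries, which did not overlap. It was the 1 member of 9 without overlap there, against 11.5% of all tested genes, and in the AP-2εCre Het comparison it was 0 of 9 against 9.92%. The log2 fold change was 0.38 (SE 0.16, 95% interval 0.02 to 0.74, edgeR adjusted p = 0.833). The OMPCre cKO, which carries the same Cre allele, gave 28.2 to 39.7 CPM. Sema3a in the AP-2εCre line gave 48.5, 52.1 and 39.9 CPM in Het and 31.1, 43.0 and 38.8 in WT, a log2 fold change of 0.32 (95% interval 0.00 to 0.63, edgeR adjusted p = 0.912). With counts scaled from TPM the AP-2εCre value of Sema3a was -0.46. Sema3c gave 0.49 (95% interval 0.02 to 0.97, edgeR adjusted p = 0.912) in the AP-2εCre line and -0.07 in the OMPCre line. Without AP-2εCre Het replicate 1, the library at 61.1 CPM, the AP-2εCre value of Sema3c was 0.23. The Sema3a value was 0.24 without WT replicate 2 in the OMPCre line and 0.19 without WT replicate 1 in the AP-2εCre line. The summed basal VSN markers were 320 to 512 CPM in AP-2εCre Het and 570 to 645 CPM in AP-2εCre WT libraries, which did not overlap, and 547 to 579 against 491 to 633 CPM in the OMPCre line. Their part in the Het values was not tested. No member was called in the AP-2εCre Het comparison, where 9 genes were (0.0487%), or in the OMPCre one, where 14 were (0.0752%). With the replicate number as a block, 7 genes were called in the OMPCre Het comparison, and again no member. At an unadjusted p under 0.05 the members numbered 2 of 9 in the AP-2εCre line, against 5.47% of genes, and 1 of 9 in the OMPCre line, against 5.84%.

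An interaction term compared the cKO effect of one line with that of the other, and no member was called where 1 gene was (0.00514%; 0 with the replicate block), nor at an unadjusted p under 0.05, where 5.05% of genes were. For Nrp2 the difference was 0.05 (95% interval -0.27 to 0.38), and for Sema3c it was -0.15 (95% interval -0.76 to 0.46). Averaged over both lines, a comparison added after the separate ones were known, the cKO effect was 0.26 for Nrp2 (SE 0.08, 95% interval 0.10 to 0.42, edgeR adjusted p = 0.258). It was -0.35 for Sema3c (95% interval -0.66 to -0.04, edgeR adjusted p = 0.478) and 0.20 for Plxna1 (95% interval 0.00 to 0.41, edgeR adjusted p = 0.538). Nrp2 and Sema3c were 2 of 9 members at an unadjusted p under 0.05, against 9.29% of genes, and 0 of 9 were called against 0.205%. DESeq2 gave Nrp2 an adjusted p of 0.0701 in that average. Controls of the AP-2εCre line against controls of the OMPCre line gave 0 of 9 members called, where 39 genes were (0.2%), or 25 with the replicate block. None of the 9 passed an unadjusted p under 0.05 there, against 7.44% of genes, and the 95% intervals of the 9 log2 differences lay between -0.40 and 0.39.

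Of the 47 other genes listed for the pathway (17 semaphorins, 5 plexins and 25 co-receptors and effectors), all were tested and edgeR called none in either cKO comparison. In the AP-2εCre line 13 of 47 (27.7%) had an unadjusted p under 0.05, against the 10.2% of all genes given above, 10 higher and 3 lower in the cKO. Dpysl5, a collapsin response mediator of semaphorin signaling, gave 106 ± 7.02 CPM (SD, n = 3) in the cKO and 78.1 ± 8.35 CPM (n = 6) in the controls, with a log2 fold change of 0.45 (edgeR adjusted p = 0.265). Mical1 and Mical2, oxidases that disassemble actin downstream of plexins, gave 0.36 and 0.31. Limk1, the kinase that inactivates cofilin, gave 0.29, and Nrcam, an adhesion molecule of neuropilin 2 complexes, gave 0.47. For these 5 genes, taken by smallest p, the cKO libraries lay above all 6 controls. Over the whole list the groups did not overlap for 9 of 47 genes, against 5.06% of all tested genes. The 3 with lower values, named after their values were seen, were Chl1 at -0.35, Sema3e at -0.21 and Plxnb3 at -0.44. DESeq2 called 1 of the 47 in this line, a gene not named here, where it called 314 genes in all. The number of genes DESeq2 tested is not given here, so these counts were not compared as shares.

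**Figure D5:**
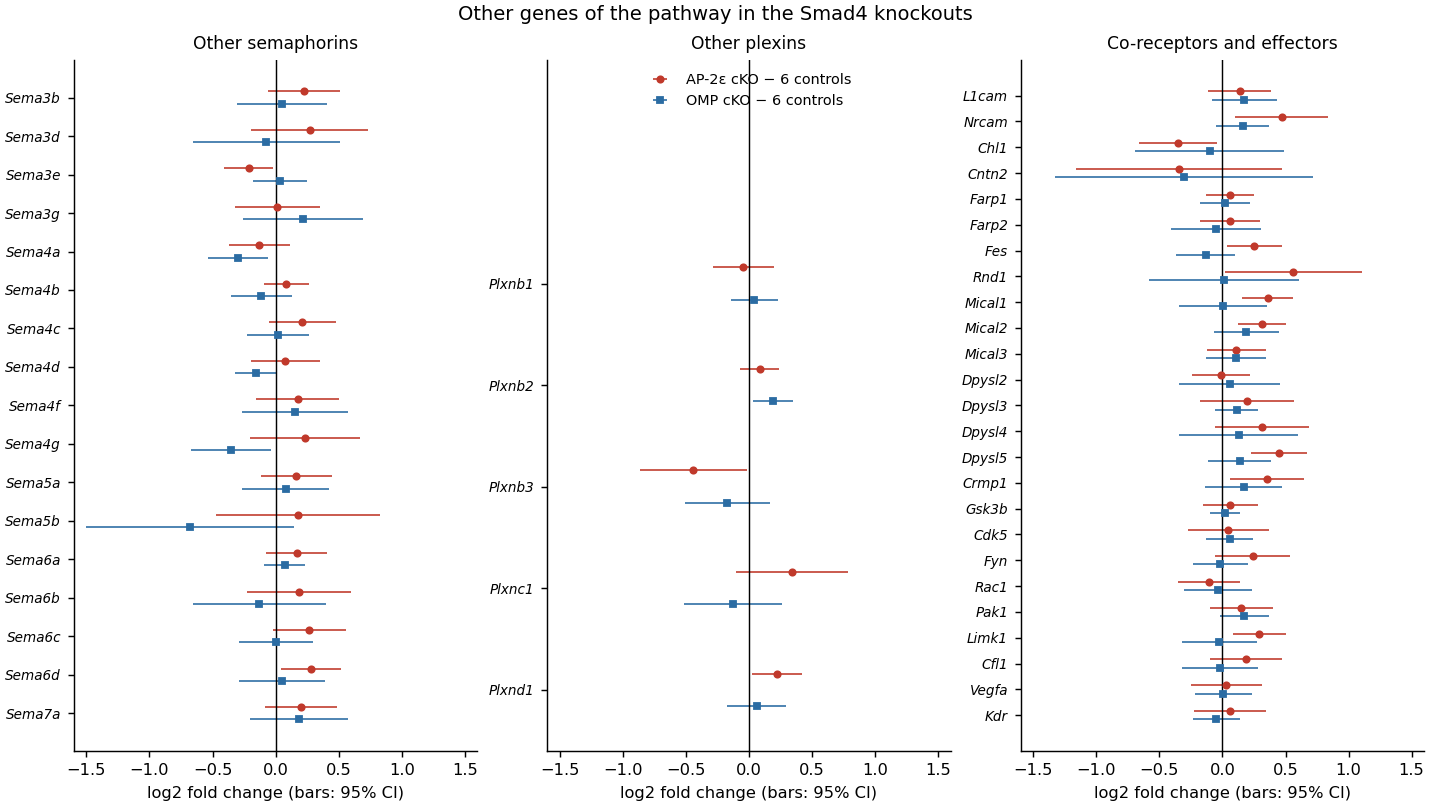
Log2 fold changes of the 47 other pathway genes by edgeR, with 95% confidence intervals (CI), in the cKO of each line against its 6 controls. In the AP-2εCre line 39 of 47 points lie above 0 and in the OMPCre line 28 of 47, and none passed adjustment across all genes.

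In the OMPCre line 3 of the 47 genes (6.38%) had an unadjusted p under 0.05, against 3.95% of all genes. Plxnb2, a plexin for class 4 semaphorins, gave 506 ± 27.5 CPM in the cKO and 443 ± 18.4 CPM in the controls, with a log2 fold change of 0.19 (edgeR adjusted p = 1.0). Sema4a gave -0.30 and Sema4g -0.35. The median over the 47 genes was 0.18 in the AP-2εCre line and 0.02 in the OMPCre line, while the medians of all genes were 0.003 and -0.005.

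Genes with profiles most like those of the members were taken by Pearson's r of log2 CPM over the 18 libraries, among 12872 genes with a mean of at least 5 CPM. The points share library depth, scaling and group, and r is given as a description. Nrp2 was most like Kirrel (r = 0.92, Spearman's rho 0.92), Tenm3 (0.90 and 0.80) and Dennd5a (0.90 and 0.90). Within groups, as deviations from group means, Nrp2 and Kirrel gave r = 0.95. Plxna1 was most like Kif1a (0.95), Sowaha (0.95) and Hcn4 (0.94). Sema3c was most like Sod2 (0.90), Acsl1 (0.87) and Adh7 (0.86), and Sema3a like Ncaph (0.84), Ect2 (0.82) and Foxm1 (0.82). Nrp1 was most like Zfp281 (0.90), Plxna4 like Lrch2 (0.91), Plxna2 like Eif4g3 (0.87), Plxna3 like Olfr1372-ps1 (0.90) and Sema3f like Aqp3 (0.82). Among the 36 pairs of members, Sema3c and Plxna1 had the most negative r, -0.75, and Nrp2 and Plxna4 the most positive, 0.65. Within groups these pairs gave -0.64 and 0.70. The extremes there were Nrp2 with Sema3f at -0.69 and Sema3c with Sema3f at 0.71.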

How the data were processed

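PolyA+ RNA was made into stranded libraries and read as 75-base single reads. Per the labels, the authors quantified reads with Salmon 0.14.0 (builds mm10 and GRCm38). The deposited values used were the estimated count of each transcript, not scaled for depth, and the TPM that the authors' Salmon run gave. The study's methods name a coding-sequence reference, whereas the listed lengths equal whole GENCODE vM21 transcripts for 99.93% of those paired, so levels were read as whole-transcript values. Estimated counts were added up per gene, then rounded. Of 116248 transcripts, 116072 paired with 35596 genes, and 176 unpaired ones held up to 0.0324% of any library's counts. The authors' DESeq2 tables were not used here.

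The members and gene lists were chosen with earlier results of these data known. Groups came from the labels, and 1 AP-2εCre library whose labels conflict entered no comparison. The main test was edgeR 4.0.16 (R 4.3.3), quasi-likelihood, with TMM scaling, filterByExpr and Benjamini-Hochberg adjustment at 0.05, each cKO against the 6 controls of its line. CPM is TMM-scaled over 18 libraries, per 1000000 counts. Single values were tested by two-sided exact permutation over the 84 splits of 3 against 6 (smallest p 0.012) or the 20 of 3 against 3 (smallest p 0.1). Members' TPM sums over transcripts with at least 5% of counts were added after seeing the data. Named beyond the 9 members were up to 3 genes most like each. Of the 47 pathway genes, up to 5 with the smallest unadjusted p under 0.05 in a comparison were named. Chl1, Sema3e and Plxnb3 were named besides, after their values were seen. The fits were tested on simulated data whose set changes were larger than any main log2 fold change of a member. Their power at the sizes seen for the members was not examined. Alternatives were DESeq2 1.42.0, its size factors, a filter of 1 count, length-scaled TPM counts, a covariate for name form, replicate number as block, either control alone, each transcript tested, and each library left out. Same-numbered libraries of different genotype correlated at 0.112 to 0.584 in the OMPCre line, as deviations from group means. In the AP-2εCre line they correlated at -0.374 to 0.314. The numbers, which come from the labels, were therefore taken as pairs in the OMPCre line only. There replicate 3 of every genotype has the number-form name, so its pairing and the name form cannot be told apart. The number-form libraries of the AP-2εCre line are cKO replicate 1, Het replicate 3 and WT replicate 3. The lowest chi-square per gene between libraries was 44.3, so none was a copy of another. Nothing says that libraries share a litter. Estimates of short transcripts vary with the reads assigned to them.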

Additional observations from a re-analysis of the deposited data

Results flagged for a closer look

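Groups of 3 libraries are too small for an outlier test, so the 6 controls of each line were looked at together for each of the 9 genes, which made 18 groups of 6. In 2 of them the gap between 1 library and the nearest other one was over 0.625 of the whole range, and chance gives about 1 such group in 20. Both concerned Nrp2. In the AP-2εCre line WT replicate 3 gave 249 CPM and the other 5 controls 295 to 316. In the OMPCre line Het replicate 3 gave 380 CPM and the other 5 controls 279 to 316. Both libraries carry names in the number form. Without the AP-2εCre library the Nrp2 log2 fold change of the cKO was 0.24 against 0.29 with it, and without the OMPCre library it was 0.30 against 0.23.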

How the results depend on the processing

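No member was called under the alternatives run in the 7 comparisons, of which single control groups and tests of each transcript were run for the cKO comparisons only. Of 744 recomputed log2 fold changes, for all 9 members in the 4 comparisons within a line, 4 members in the difference between lines and 3 in the average, 702 kept their direction. The lowest adjusted p of a member was 0.0701, for Nrp2 in the mean over both lines under DESeq2, and it ranged up to 0.405 over the other settings that kept all libraries. The turned values, all without a call, were the following log2 fold changes. Length-scaled TPM counts gave Sema3f -0.29 and Plxna3 -0.167 in the AP-2εCre cKO, Nrp1 0.012 in the OMPCre cKO, Nrp1 0.004, Sema3a -0.461 and Sema3f -0.074 in AP-2εCre Het, and Sema3c 0.065 in OMPCre Het. WT controls alone gave Plxna3 -0.041 in the AP-2εCre cKO, and Nrp1 0.035, Sema3a 0.023 and Plxna3 0.049 in the OMPCre cKO. Het controls alone gave Sema3f -0.071 in the AP-2εCre cKO, and Sema3f 0.041 and Plxna4 -0.049 in the OMPCre cKO. The replicate block turned Plxna1 in OMPCre Het to 0.003, and changed no call of a member. The cause of these turns was not tested.

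With 1 library left out, ranges that include both directions in the AP-2εCre cKO were -0.131 to 0.269 for Nrp1, -0.081 to 0.129 for Sema3f, -0.016 to 0.06 for Plxna3 and -0.022 to 0.151 for Plxna4. Those of the OMPCre cKO were -0.102 to 0.066 for Nrp1, -0.196 to 0.007 for Sema3f, -0.122 to 0.023 for Plxna2, -0.278 to 0.044 for Plxna3 and -0.067 to 0.101 for Plxna4. Het against WT gave -0.04 to 0.116 for Nrp2 in the AP-2εCre line. It gave -0.069 to 0.162 for Nrp1, -0.206 to 0.048 for Sema3c and -0.16 to 0.153 for Plxna1 in the OMPCre line. The difference between lines ranged from -0.033 to 0.169 for Nrp2 and from -0.286 to 0.137 for Sema3c.

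Counts of called genes depended on the tool. The AP-2εCre cKO count of 7 became 314 with DESeq2, 2 with length-scaled TPM, 2 with the name form, 2 with the replicate block, 24 with WT controls alone, 0 when each transcript was tested and 2 to 8 with 1 library left out (2 without WT replicate 2, Het replicate 2, Het replicate 3, cKO replicate 1 or cKO replicate 3). The OMPCre cKO count of 0 became 44 with DESeq2, 1 with the name form, 11 with Het controls alone, 2 when each transcript was tested and 0 to 2 with 1 library left out (2 without WT replicate 2). The AP-2εCre Het count of 9 became 127 with DESeq2, 14 with the filter of 1 count, 4 with length-scaled TPM, 5 with the name form, 3 with the replicate block and 3 to 21 with 1 library left out (3 without WT replicate 1, 21 without Het replicate 1). The OMPCre Het count of 14 became 156 with DESeq2, 7 with the replicate block and 6 to 19 with 1 library left out (6 without WT replicate 2). The count of 1 for the difference between lines became 52 with DESeq2, 2 with the filter of 1 count, 2 with the name form, 0 with the replicate block and 0 to 5 with 1 library left out (0 without OMPCre cKO replicate 2 or 3, 5 without AP-2εCre Het replicate 1). The count of 39 between the controls of the lines became 198 with DESeq2, 59 with the name form, 25 with the replicate block and 22 to 53 with 1 library left out (22 without AP-2εCre WT replicate 3). The count of 40 for the mean over both lines became 259 with DESeq2, 18 with length-scaled TPM, 69 with the name form and 23 to 58 with 1 library left out (23 without cKO replicate 3 of either line).

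Every member had at least 16.4 CPM in each control library, and the number of libraries, 3 in a group, limits how small a change can be seen. The average over both lines, the TPM of transcripts with at least 5% of counts and the values within a form of library name were chosen after seeing the data.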

Other observations

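The library with conflicting labels gave 366 CPM of Nrp2, 347.8 CPM of Plxna1 and 46.93 CPM of Nrp1, inside the range of the other 18 libraries. Sema3a at 54.44 CPM, Plxna3 at 44.72 CPM and Plxna4 at 24.99 CPM lay above the highest of those 18, which reached 52.2, 42.1 and 22.5 CPM. Sema3c gave 35.79 CPM, Sema3f 41.67 CPM and Plxna2 33.78 CPM, again inside the range.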
